A study of Homo sapiens with 6 samples.

Results

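The genes described here are 36 genes of autophagy and the lysosome, measured by RNA-seq in DU-145 prostate cancer cells that carry an inducible shRNA against the lncRNA XIST. They were listed by name for their known roles, and all 36 were found among the 25528 gene symbols measured. DU-145/tet-XISTshRNA cells were compared after 7 days with vehicle (3 samples, 0.1% DMSO) or with 500 ng/ml doxycycline (DOX, 3 samples), which switches on the shRNA. Both groups are the same drug-selected line, cultured in triplicate. The study used this comparison to look for genes whose expression depends on XIST. Samples of a control hairpin treated with DOX were not analysed here, so the drug and the shRNA cannot be told apart. The files give 0 for XIST itself in each of the 6 samples, and how far it was silenced cannot be read from them.

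Autophagy wraps cytoplasm in a growing double membrane, the phagophore, which closes into an autophagosome and fuses with the lysosome. Starting kinases of the ULK complex switch on a lipid kinase complex around PIK3C3 and BECN1. ATG9A and the ATG2 proteins then supply membrane lipid, and an enzyme cascade attaches the small ATG8 proteins (LC3 and GABARAP families) to that membrane, where receptors such as SQSTM1 tether cargo. TFEB and TFE3 are transcription factors that switch on lysosome and autophagy genes together. DU-145 cells are known for lacking functional ATG5, a part of the enzyme that attaches ATG8 proteins to lipid, and a total per gene as given here does not show which ATG5 transcript is made.

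TFEB and TFE3 bind the letters CACGTG, the core of the CLEAR element named for lysosomal genes, so the RefSeq promoters of the members (250 bases before to 50 after each start, GRCh38.p14) were searched for it. CACGTG reads the same on both strands. Promoters were given for 32 of the 36 symbols (41 promoters), and 4 of these promoters held the motif (9.76%), beside 2526 of all 34943 promoters (7.23%). The members with the motif were LAMP1, ATG3, ATG14 and CTSD. CTSB, LAMP2, RB1CC1 and UVRAG had no promoter given and were not searched. The windows around the sites of 3 of these are shown with the motif in capitals, to print the letters that were searched for.
ATG3, chr3:112561963-112561992, minus strand: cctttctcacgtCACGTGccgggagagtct
ATG3, chr3:112561940-112561969, minus strand: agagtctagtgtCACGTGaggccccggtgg
ATG14, chr14:55411834-55411863, minus strand: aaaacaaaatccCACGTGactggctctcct
CTSD, chr11:1763957-1763986, minus strand: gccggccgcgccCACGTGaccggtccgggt

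LAMP1, which encodes the most abundant glycoprotein of the lysosomal membrane, stood apart in this search. Its promoter held 6 copies of CACGTG, and it was the only 1 of the 34943 promoters with 6 or more, while 33 promoters (0.0944%) held 3 or more. The stretch with all 6 copies, from 250 bases before the start to 6 after it, is shown with each copy in capitals.
LAMP1, chr13:113296989-113297244, plus strand: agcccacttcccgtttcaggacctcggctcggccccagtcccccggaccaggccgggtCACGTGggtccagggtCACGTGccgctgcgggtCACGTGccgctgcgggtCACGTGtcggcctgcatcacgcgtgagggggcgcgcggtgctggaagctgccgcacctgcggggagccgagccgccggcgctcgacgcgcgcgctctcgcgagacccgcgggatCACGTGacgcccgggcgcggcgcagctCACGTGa
A match is a stretch of letters and does not show that a factor sits there.

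Expression is given as TPM, a count of transcripts that divides reads by gene length and sums to 1000000 in each sample. In these libraries 5 small RNAs (RPPH1, RN7SK and the RN7SL copies RN7SL1 to RN7SL3) held 67.5% to 82.6% of that total, so their share sets the TPM of every other gene. TPM was therefore scaled between samples by the median of ratios, and levels below are scaled TPM, listed in the order of replicates 1, 2 and 3. Reads recovered from the deposited values ranged from 5453702 in vehicle replicate 3 to 64573756 in DOX replicate 1, with 16701889 to 20352093 in the other 4 samples. The epithelial markers EPCAM, CDH1, KRT8, KRT18 and KRT19 were all present, and the summed fibroblast, leukocyte and endothelial markers stayed at or under 1.09. In such bulk samples a lower value from fewer cells of a kind and from less RNA per cell cannot be told apart.

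DU-145/tet-XISTshRNA cells expressed the autophagy and lysosome genes at 0.926 (TFEB) to 229 (GABARAP) scaled TPM on average, with a median of 12.1 beside 7.20 over the 11630 genes tested. The 3 members above 100 encode an ATG8 protein (GABARAP, 229), a membrane scramblase (VMP1, 204) and a cargo receptor (SQSTM1, 139). Another 17 members lay between 10 and 100 scaled TPM and 16 lay under 10, among them ULK1, PIK3C3, ATG5 and ATG7. By role, the ATG8 genes ran from 12.4 to 229, the receptors from 14.5 to 139 and the lysosomal genes from 11.0 to 84.2, while the initiation genes ran from 3.62 to 17.4 and the lipid kinase genes from 6.97 to 17.1.

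**Figure D1:**
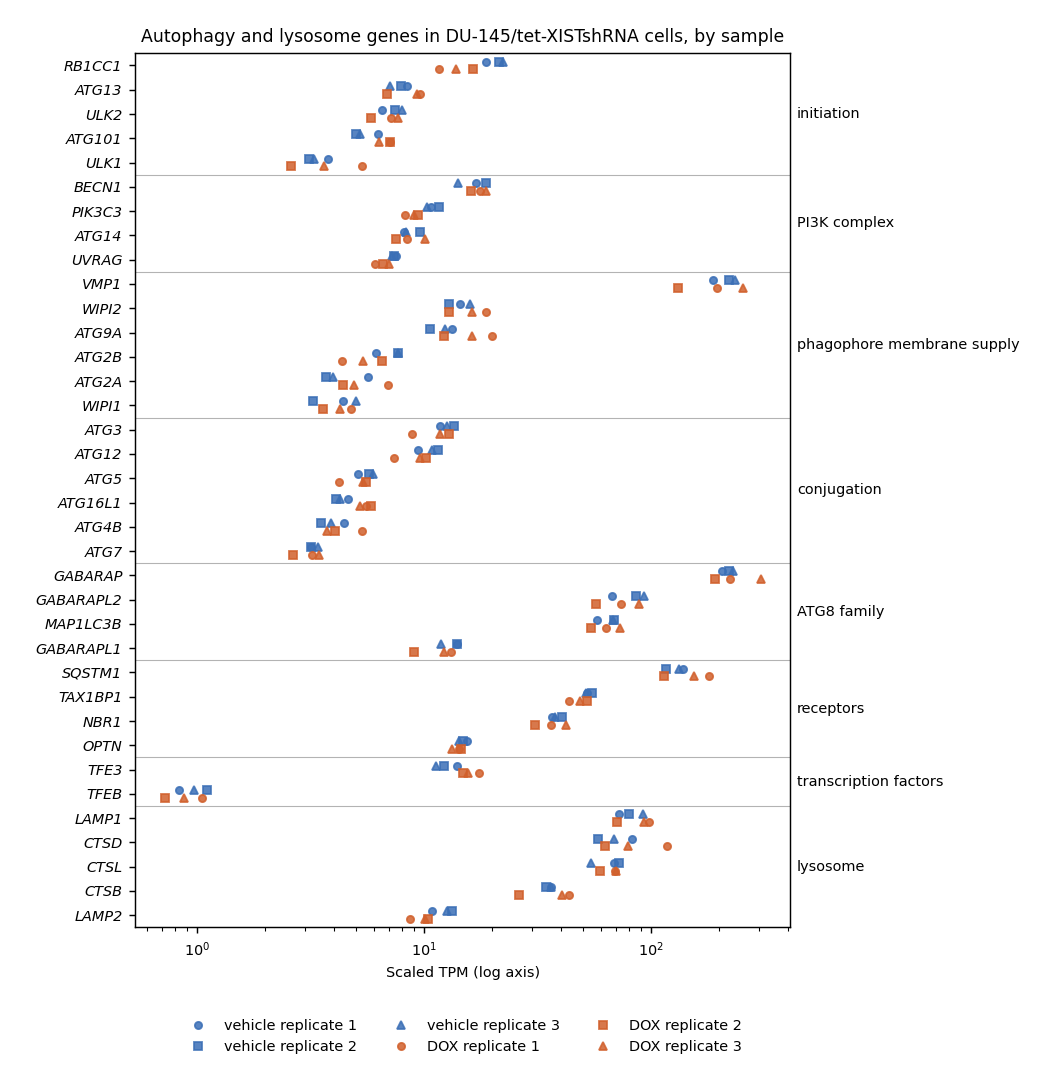
Scaled TPM (log axis) of the 36 autophagy and lysosome genes in each of the 6 samples, grouped by role, with vehicle in blue, DOX in orange and a marker shape per replicate. GABARAP, VMP1 and SQSTM1 lie above 100, TFEB lies near 1, and the vehicle and DOX points of most genes are interleaved.

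DOX treatment left no member called by limma. Calls needed an adjusted p under 0.05 together with a change over 1.5-fold, and 0 of the 35 members above the expression minimum passed in either direction, as did 0 of the 11630 genes tested (0% lower and 0% higher). The smallest adjusted p among members was 0.281 (RB1CC1). At an unadjusted p under 0.05, 3 members were lower with DOX (RB1CC1, ATG2B and LAMP2), where 7.74% of all genes tested were lower at that level, and 2 were higher (TFE3 and ATG16L1), beside 8.10% of all genes. Log2 fold changes (DOX minus vehicle, on log2(scaled TPM + 1)) ran from -0.55 for RB1CC1 to 0.37 for ATG9A, with 18 members below 0 and 17 above, and a median of -0.01 beside 0.02 over all genes. These signs depend on the scaling: on TPM as deposited the median of all genes was -0.35 and the 17 members above 0 were below 0 too.

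The spread of replicates gives a range for each log2 fold change, under this scaling and with 1 added to each value. The 95% interval included 0 for 30 of the 35 members and lay wholly within 1.5-fold in either direction for 27. These intervals do not cover the choice of scaling: on TPM as deposited RB1CC1 was at -0.97, outside its interval of -0.87 to -0.23. Adding 1 also shrinks changes of members with low values. ATG16L1 went from 0.30 to 0.35 with 0.1 added. In 4 members (RB1CC1, PIK3C3, UVRAG and LAMP2) the highest DOX sample was still under the lowest vehicle sample, which is 11.4% of members beside 9.13% of all genes. In 3 members (ATG101, ATG16L1 and TFE3) all DOX samples lay above, which is 8.57% beside 10.9%. Both shares are near those of all genes tested, and the groups overlapped in the other 28.

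**Figure D2:**
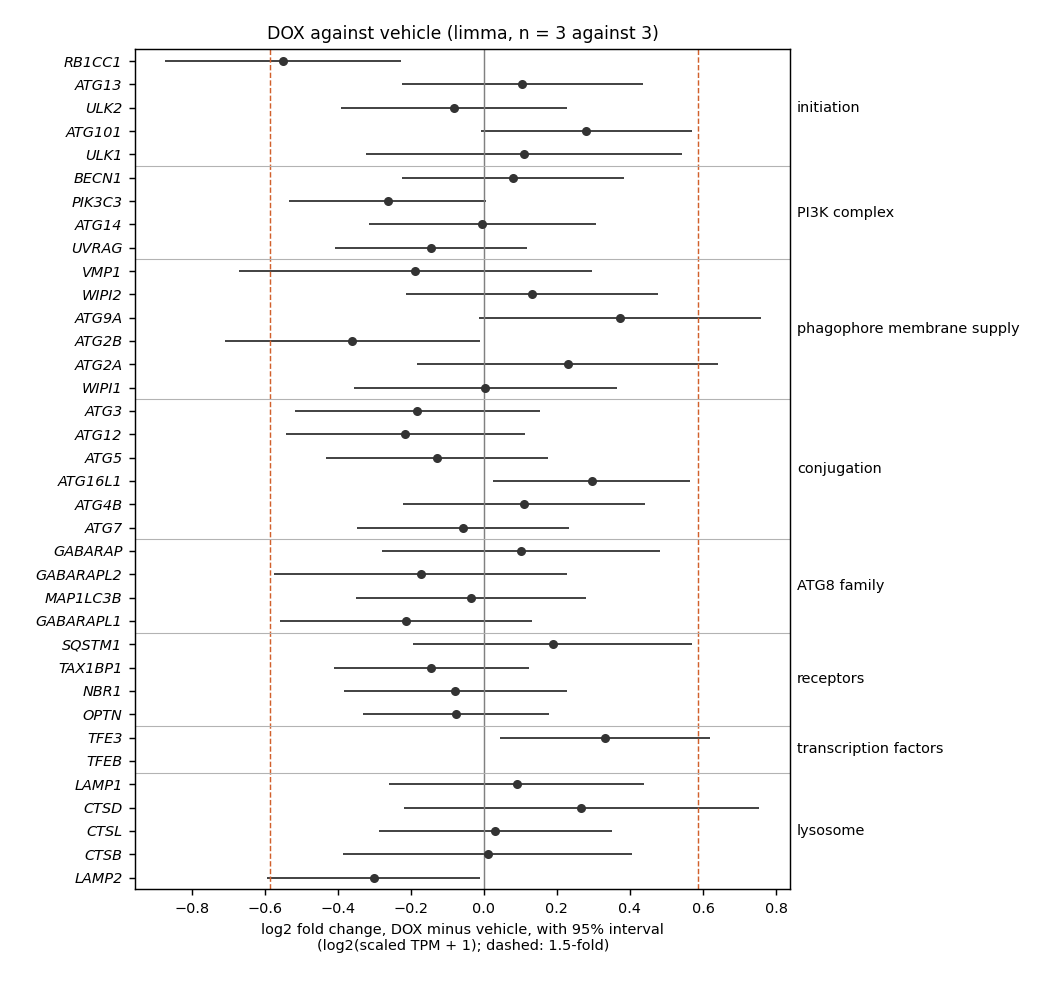
Log2 fold change (DOX minus vehicle) of the 35 autophagy and lysosome genes in the fit, with 95% intervals, grouped by role; dashed lines mark 1.5-fold and TFEB, under the expression minimum, has no point. Estimates run from -0.55 (RB1CC1) to 0.37 (ATG9A), and 30 of the 35 intervals cross 0.

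Among the genes that start autophagy, RB1CC1 had the most negative fold change. RB1CC1 (FIP200) is the scaffold of the ULK kinase complex. It was at 18.7, 21.3 and 22.2 scaled TPM with vehicle and at 11.7, 16.4 and 13.8 with DOX. No DOX value reached the vehicle range. The means were 20.8 ± 1.81 and 14.0 ± 2.37 (SD, n = 3), and the log2 fold change was -0.55 (95% interval -0.87 to -0.23, limma adjusted p = 0.281). Leaving out 1 sample at a time gave log2 fold changes of -0.66 to -0.44.

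ATG101, which stabilizes ATG13 in the complex, was at 6.26, 5.01 and 5.21 with vehicle and at 7.12, 7.11 and 6.37 with DOX. These groups did not overlap, by a gap of 6.26 to 6.37, and the log2 fold change was 0.28 (adjusted p = 0.319). ULK1, the best known kinase of the complex, was the lowest of the group at 3.77, 3.11 and 3.28 with vehicle and 5.32, 2.59 and 3.64 with DOX. DOX replicates 1 and 2 fell on opposite sides of the vehicle range, and the interval of its log2 fold change (0.11) was -0.32 to 0.54. ULK2 and ATG13 had log2 fold changes of -0.08 and 0.11. ULK1 made up 31.7% ± 4.24 of the summed ULK1 and ULK2 values with vehicle and 35.2% ± 6.55 with DOX (SD, n = 3; exact permutation p = 0.5).

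In the lipid kinase complex, PIK3C3 (VPS34), the catalytic subunit, was at 10.8, 11.6 and 10.3 scaled TPM with vehicle and at 8.23, 9.46 and 9.03 with DOX. All DOX values lay lower, with a log2 fold change of -0.26 (interval -0.53 to 0.00, adjusted p = 0.317). UVRAG, the subunit of the complex that acts on endosomes, also had DOX values below vehicle. It was at 7.50, 7.39 and 7.22 with vehicle and at 6.11, 6.61 and 7.01 with DOX, a smaller log2 fold change of -0.14 (adjusted p = 0.530). BECN1, the scaffold subunit and the most expressed of the complex, was at 16.9, 18.8 and 14.2 with vehicle and 17.7, 16.1 and 18.8 with DOX, and these values were interleaved. ATG14, the subunit that directs the complex to autophagy and 1 of the members with CACGTG, had a log2 fold change of -0.01 (interval -0.32 to 0.31).

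Among the genes of phagophore membrane supply, ATG2B, which moves lipid into the phagophore, was at 6.18, 7.70 and 7.72 with vehicle and at 4.36, 6.52 and 5.39 with DOX. DOX replicate 2 lay above vehicle replicate 1, so the groups overlapped, and the log2 fold change was -0.36 (interval -0.71 to -0.01, adjusted p = 0.304). Its paralogue ATG2A had a log2 fold change of 0.23 (interval -0.18 to 0.64). Within samples, ATG2A took 47.9%, 32.6% and 34.1% of the pair with vehicle and 61.4%, 40.3% and 47.7% with DOX. Replicate 1 was the highest in both groups. The share was higher with DOX in all 3 same-numbered pairs, and the permutation test, which ignores pairs, gave an exact p of 0.3. The paralogues differ in GC content of the exons (63.2% for ATG2A and 42.2% for ATG2B). After the correction for GC content and length given below, their log2 fold changes were 0.01 and -0.19.

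ATG9A, the scramblase that seeds the phagophore from small vesicles, had the most positive fold change of all members. It was at 13.3, 10.6 and 12.4 scaled TPM with vehicle and at 19.9, 12.3 and 16.3 with DOX. DOX replicate 2 lay inside the vehicle range. Its log2 fold change of 0.37 (interval -0.01 to 0.76, adjusted p = 0.319) moved between 0.22 without DOX replicate 1 and 0.55 without DOX replicate 2. In the annotation, 38.8% of the exonic bases of ATG9A are shared with another gene model on the same strand, where reads of the genes cannot be told apart.

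VMP1, a scramblase of the endoplasmic reticulum, was the second most expressed member, at 188, 220 and 233 with vehicle and at 195, 131 and 255 with DOX. The DOX samples lay below, within and above the vehicle range, and the log2 fold change was -0.19 (interval -0.67 to 0.30). The gene also holds the hairpin of miR-21 (MIR21, 72 exonic bases on the same strand). WIPI1 and WIPI2, which read the lipid made by PIK3C3, had log2 fold changes of 0.00 and 0.13. WIPI1 was the lowest of these genes at 4.42, 3.26 and 5.03 with vehicle and 4.80, 3.58 and 4.28 with DOX, with no shift between the groups beyond their spread.

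The 6 conjugation genes averaged 3.18 (ATG7) to 11.9 (ATG3) scaled TPM. ATG5, whose product DU-145 cells are known to lack in working form, was still measured as RNA. It was at 5.11, 5.74 and 5.96 scaled TPM with vehicle and at 4.24, 5.55 and 5.37 with DOX, from 149 to 1339 recovered reads a sample. The groups overlapped, with means of 5.60 ± 0.439 and 5.05 ± 0.708 (SD, n = 3). Its log2 fold change was -0.13 (interval -0.43 to 0.17, adjusted p = 0.629). Values under -0.43 lie outside the interval under this scaling only. On TPM as deposited ATG5 was at -0.50 (limma adjusted p = 0.160, and 0.0348 with the replicate number as a block).

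ATG12, the ubiquitin-like protein joined to ATG5, was at 9.45, 11.5 and 10.8 with vehicle and at 7.38, 10.2 and 9.56 with DOX. These values overlapped, and the log2 fold change was -0.22 (adjusted p = 0.456). ATG16L1, which brings the ATG12 and ATG5 conjugate to the membrane, had no overlap in the other direction. It was at 4.63, 4.11 and 4.28 with vehicle and at 5.57, 5.86 and 5.23 with DOX. The log2 fold change was 0.30 (interval 0.03 to 0.56, adjusted p = 0.291), and it stayed between 0.27 and 0.33 when any 1 sample was left out.

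The other conjugation enzymes had intervals across 0. ATG3, the enzyme that hands ATG8 proteins to lipid and a member with 2 CACGTG sites, was at 11.8, 13.6 and 12.6 with vehicle and at 8.84, 12.9 and 11.7 with DOX. DOX replicate 1 alone lay well below the vehicle range, and without it the log2 fold change went from -0.18 to -0.04. ATG7, which activates ATG12 and the ATG8 proteins, was the lowest of the group at 3.18, 3.17 and 3.42 with vehicle and 3.23, 2.65 and 3.44 with DOX. The protease ATG4B had a log2 fold change of 0.11.

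GABARAP dominated the ATG8 family in these cells. It was at 206, 222 and 230 scaled TPM with vehicle and at 224, 191 and 304 with DOX, with a log2 fold change of 0.10 (interval -0.28 to 0.48). In the annotation, 35.4% of its exonic bases are shared with another gene model on the same strand. GABARAPL1, the lowest of the 4 members of the family, was at 14.0, 14.0 and 11.8 with vehicle and at 13.1, 9.00 and 12.2 with DOX (log2 fold change -0.21, adjusted p = 0.482). MAP1LC3B, the most used marker of autophagosomes, averaged 64.9 ± 6.07 with vehicle and 63.5 ± 9.10 with DOX (SD, n = 3). GABARAPL2 was at 67.4, 85.8 and 93.5 with vehicle and at 74.1, 57.3 and 88.3 with DOX, and the groups overlapped.

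Shares within a sample do not depend on the scaling between samples, though a trend with GC content can still move them. GABARAP took 59.7%, 56.8% and 57.1% of the sum of the 4 ATG8 members with vehicle and 59.8%, 61.2% and 63.7% with DOX. For these 4 genes every DOX share lay above every vehicle share, by a gap of only 59.7% to 59.8%. The sum leaves out MAP1LC3A, MAP1LC3B2 and MAP1LC3C of the same family. They were at 2.48, 2.06 and 0 scaled TPM in vehicle replicate 1 and at 4.63, 1.94 and 0.0438 in DOX replicate 1. With them added, a gap this narrow need not hold. The exact permutation p was 0.1, the smallest that 3 samples against 3 can give, and 0.5 after adjustment over the 10 shares compared among paralogues. GABARAPL2 went from 21.6% ± 1.87 to 18.9% ± 0.792 and MAP1LC3B from 17.1% ± 0.502 to 16.6% ± 1.17 (SD, n = 3), and both overlapped between groups.

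The cargo receptors had small fold changes. SQSTM1 (p62), which carries ubiquitinated cargo and is itself degraded by autophagy, was at 138, 116 and 134 scaled TPM with vehicle and at 180, 114 and 154 with DOX. DOX replicate 2 lay below all vehicle samples and the other DOX samples lay above, for a log2 fold change of 0.19 (interval -0.19 to 0.57). OPTN, the lowest of the receptors, was at 15.5, 14.8 and 14.3 with vehicle and at 14.3, 14.5 and 13.4 with DOX. Its groups overlapped at 14.3 to 14.5, and its interval of -0.33 to 0.18 lies within 1.5-fold. NBR1 and TAX1BP1 had log2 fold changes of -0.08 and -0.14.

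TFE3 averaged 14.2 scaled TPM and TFEB 0.926. TFE3 was at 13.9, 12.3 and 11.3 scaled TPM with vehicle and at 17.5, 14.9 and 15.6 with DOX. All DOX values lay above all vehicle values, and the log2 fold change was 0.33 (interval 0.04 to 0.62, adjusted p = 0.284). TFEB was at 0.834, 1.10 and 0.967 with vehicle and at 1.05, 0.724 and 0.877 with DOX, from 19 to 260 recovered reads a sample. It fell under the expression minimum of 1, and its groups overlapped (two-sided exact permutation p = 0.5). Of the members with CACGTG, ATG3, ATG14, LAMP1 and CTSD had log2 fold changes of -0.18, -0.01, 0.09 and 0.27, each with an interval that included 0.

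At the lysosome, LAMP2 and LAMP1 had fold changes of opposite sign, though the interval of LAMP1 included 0. Both signs turned after the correction for GC content and length given below, to 0.01 for LAMP2 and -0.02 for LAMP1. LAMP2, a membrane protein needed for autophagosome fusion and chaperone-mediated autophagy, was at 10.9, 13.3 and 12.6 scaled TPM with vehicle and at 8.71, 10.4 and 10.1 with DOX. The highest DOX value was under the lowest vehicle value, and the log2 fold change was -0.30 (interval -0.59 to -0.01, adjusted p = 0.304). LAMP1, with the 6 promoter motifs, was at 72.0, 79.8 and 92.4 with vehicle and at 97.9, 70.6 and 92.8 with DOX. Its log2 fold change was 0.09 (interval -0.26 to 0.44). LAMP1 took 86.9% ± 1.13 of the pair with vehicle and 89.7% ± 2.40 with DOX (SD, n = 3; exact permutation p = 0.2).

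The lysosomal proteases overlapped between the groups. CTSD, the aspartic protease, averaged 70.0 ± 12.3 scaled TPM with vehicle and 86.5 ± 27.9 with DOX (SD, n = 3), where DOX replicate 1 alone was at 117. In the annotation, 22.9% of its exonic bases are shared with another gene model on the same strand. The cysteine proteases CTSB and CTSL averaged 35.7 ± 1.16 and 65.2 ± 9.66 with vehicle and 36.8 ± 9.18 and 66.3 ± 6.01 with DOX. Of the 3 cathepsins together, CTSD took 40.8% with vehicle and 45.0% with DOX (exact permutation p = 0.6).

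**Figure D3:**
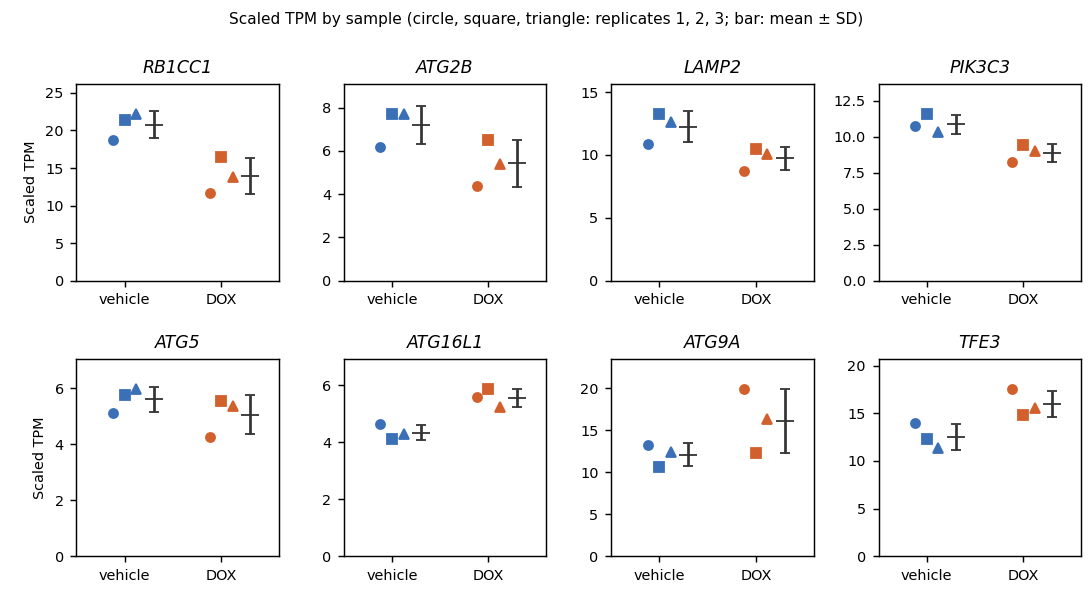
Scaled TPM in each sample (markers by replicate) with mean and SD bars for 8 members, on axes that start at 0. RB1CC1, LAMP2 and PIK3C3 have all DOX points below the vehicle points and ATG16L1 and TFE3 have them above, while ATG2B, ATG5 and ATG9A overlap.

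The sign of the members' fold changes followed the base composition of their transcripts. GC content of the exons ran from 35.95% (LAMP2) to 63.9% (CTSD). Spearman's rho between GC content and log2 fold change was 0.85 over the 35 members, beside 0.69 over 11165 genes, where the points share the same 6 libraries and no p is given. The 12 members of lowest GC content (35.95% to 45.5%), which include RB1CC1, ATG2B, LAMP2, PIK3C3, ATG12 and ATG5, were all below 0 with a median of -0.18. Among all genes of that range 77.0% were below 0 and the median was -0.14. Of the 12 members of highest GC content (52.1% to 63.9%), which include TFE3, ATG9A, ATG101 and CTSD, 1 was below 0 and the median was 0.16, beside 13.7% and 0.20 among all genes of that range.

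Single samples differed in this respect. DOX replicate 1, the most deeply sequenced, had the low-GC members at a median of -0.25 and the high-GC members at 0.30 on the log2 scale around each gene's mean over the 6 samples. DOX replicate 2 had them at -0.02 and -0.22, and DOX replicate 3 at -0.04 and 0.12. Vehicle replicates 1, 2 and 3 had the low-GC members at -0.01, 0.17 and 0.11 and the high-GC members at 0.01, -0.20 and -0.08. Without DOX replicate 1, rho over the members was 0.55, and without any other single sample it was 0.72 to 0.88.

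After GC content and exonic length were fitted out of each sample, rho over the members was -0.03 and 13 of the 35 members had the other sign. The correction takes out a trend with GC content whatever its source, so a rho near 0 follows from the procedure. LAMP2 went from -0.30 to 0.01, PIK3C3 from -0.26 to 0.02, ATG12 from -0.22 to 0.07 and ATG5 from -0.13 to 0.03. TFE3 went from 0.33 to 0.11 and ATG9A from 0.37 to 0.14. RB1CC1 had a log2 fold change of -0.30 after the correction (limma adjusted p = 0.252) and GABARAPL1 had -0.29 (adjusted p = 0.376). ATG16L1 had 0.29 (adjusted p = 0.304), close to its 0.30 before.

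**Figure D4:**
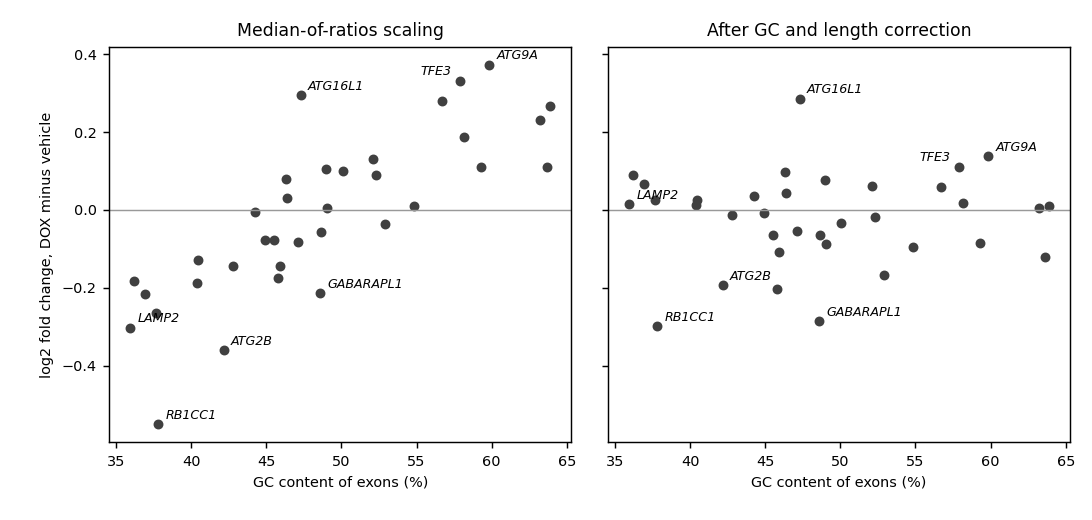
Log2 fold change (DOX minus vehicle) against GC content of the exons (%) for the 35 members in the fit, before (left) and after (right) correction for GC content and length. Spearman's rho is 0.85 on the left and -0.03 on the right, where a value near 0 follows from the correction. RB1CC1 and ATG16L1 lie at -0.30 and 0.29 on the right.

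How the samples were scaled and paired decided whether any member was called. On TPM as deposited, all 35 members were below 0, with a median of -0.41. There RB1CC1 was called lower (log2 fold change -0.97, adjusted p = 0.0471), as 1 of the 35 members, beside 2.98% of all genes. The groups did not overlap for 12 members (34.3%) with DOX below, beside 30.7% of all genes, and for 0 with DOX above, beside 0.223%. With the replicate number as a block on these values, 9 members were called lower (RB1CC1, PIK3C3, ATG2B, VMP1, ATG3, ATG12, GABARAPL1, GABARAPL2 and LAMP2), beside 19.0% of all genes. On scaled TPM with the block, 0 members were called and the smallest adjusted p was 0.055 (RB1CC1).

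The counts of reads recovered from the files, fitted by voom with the replicate block, weight the deeper libraries more. By that fit 0 members passed the call, beside 2.16% of all genes lower and 1.46% higher. At an adjusted p under 0.05 and any fold, 3 members were lower, namely RB1CC1 (-0.58, adjusted p = 0.0118), ATG2B (-0.42, 0.024) and LAMP2 (-0.33, 0.0366), beside 7.94% of all genes. Higher at that level were ATG9A (0.41, adjusted p = 0.0354) and TFE3 (0.34, 0.0491), beside 5.63% of all genes. With GC content and length taken out of the voom values before that fit, 0 members passed at any fold, beside 0.0448% of all genes. RB1CC1 was then at -0.28 (adjusted p = 0.162).

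Of 132 further genes of autophagy, the lysosome and their control, 125 passed the expression minimum and 0 were called. At an unadjusted p under 0.05, 8 of the 125 were lower and 7 were higher, which are smaller shares than the 7.74% and 8.10% of all genes tested. Medians of the log2 fold change lay between -0.02 and 0.04 for every list of more than 1 gene in the fit, beside 0.02 over all genes. By voom on recovered reads with the block, 2 of these 125 genes were called lower, beside 2.16% of all genes: PRKAA2, a catalytic subunit of the energy sensor AMPK (-0.71, adjusted p = 0.015), and CCPG1, a receptor for parts of the endoplasmic reticulum (-0.62, 0.0279). With GC content and length taken out before that fit, 0 of the 125 had an adjusted p under 0.05.

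Among the 22 genes of mTORC1 and AMPK control in the fit, PRKAA2 was at 5.67, 7.06 and 6.91 scaled TPM with vehicle and at 2.80, 5.86 and 3.75 with DOX (log2 fold change -0.59, adjusted p = 0.282). AKT1S1, an inhibitory partner of mTORC1, was at 12.4, 9.64 and 10.7 and at 17.7, 14.9 and 13.6, with all DOX values higher (0.46, adjusted p = 0.281). For PRKAA2 and AKT1S1 the sign went with GC content, which is 35.2% and 59.8%. Not every gene of the further lists did so. Of the 41 lysosomal enzymes and membrane proteins, CTSK, a cysteine protease, had the smallest p of all genes in these lists. It was at 13.8, 13.4 and 16.1 with vehicle and at 9.87, 10.3 and 9.31 with DOX. All DOX values lay lower, with a log2 fold change of -0.51 (adjusted p = 0.269) that was -0.39 after the GC and length correction. MANBA, a mannosidase, was at -0.34 on the log2 scale (adjusted p = 0.282).

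STX17, the SNARE protein of the autophagosome that drives fusion, was at 8.62, 9.39 and 10.4 with vehicle and at 5.26, 8.31 and 6.90 with DOX. Its groups did not overlap, and the log2 fold change was -0.43 (adjusted p = 0.282). VPS41 of the tethering complex had -0.21, and the other 10 genes of fusion had larger p-values. Of the 16 V-ATPase genes, which encode the proton pump that acidifies the lysosome, ATP6V0B and ATP6V0C had log2 fold changes of 0.42 and 0.49 (adjusted p = 0.287 and 0.293), while ATP6V1C1, named after its values were seen, had -0.34 (adjusted p = 0.296). The 16 split into 7 below 0 and 9 above. Of the 17 further receptors, PHB2 of mitochondria had 0.50 and SEC62 of the endoplasmic reticulum had -0.48 (adjusted p = 0.281 and 0.282). Of the 16 other core autophagy genes, the proteases ATG4A and ATG4C had -0.23 and -0.19. MITF, a relative of TFE3, was at 17.0, 18.2 and 18.0 with vehicle and at 12.7, 14.7 and 15.3 with DOX (log2 fold change -0.30, adjusted p = 0.290), opposite in sign to TFE3, and TFEC was at or near 0 in all samples.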

How the data were processed

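RNA-seq of 3 vehicle and 3 DOX samples was used, grouped by their labels. The authors prepared stranded mRNA libraries, used STAR with GRCh38 for alignment and deposited TPM per gene symbol. The authors also deposited DESeq2 results, of which only the mean of normalized counts (a signal over all samples) was used; their fold changes and p-values were not. Tool versions, how reads were counted and whether strand was used are not given in the sources used here, so reads of antisense neighbours may be included.

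TPM was scaled by the median of ratios over 15075 genes, as in the size factors that the authors' DESeq2 step uses, and log2(scaled TPM + 1) was compared by limma 3.58.1 (R 4.3.3, eBayes with trend, no block) over genes with a mean scaled TPM of at least 1, with Benjamini-Hochberg adjustment over all of them. Single values and shares were compared by two-sided exact permutation tests (SciPy 1.17.1). Tables used Python 3.11.15 and pandas 2.3.3, and figures matplotlib 3.10.9. Reads were recovered from TPM and the mean of normalized counts, with a factor per sample tuned on low values. Of 12037 values under 20 reads, 99.3% were whole within 0.05 reads, against 10% by chance for values not tuned. The tuning used values of the same kind, so this share is not an independent check. GC content and length came from GENCODE 44 (GRCh38; 96.0% of genes tested) and were fitted with a 5 df spline per sample. On simulated data of 11666 genes, 198 of 200 genes changed 2-fold were recovered with 4 false calls, and reads were recovered for 100% of 18871 genes. The simulation gave all genes the same relative spread between samples, no trend with GC content and no effect of replicate number. Its TPM was built with a fixed length per gene, as the recovery of reads assumes. Its shares of recovered genes and of recovered reads therefore need not hold for the measured libraries.

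Same-numbered vehicle and DOX samples deviated together (r = 0.56, 0.26 and 0.19 for numbers 1, 2 and 3), which is the only sign that numbers pair the samples. The pair of vehicle replicate 2 and DOX replicate 3 reached 0.22. P-values measure the spread between cultures of 1 line. No sample pair was identical (0 pairs).

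The members and lists were chosen with earlier results of these data known. Values per sample are given for ATG5, the 10 members of smallest unadjusted p, members called on scaled or deposited TPM or with the block, and the highest and lowest member by role. From each further list, called genes and the 2 of smallest p are named, some with values per sample. Alternatives were deposited TPM, a pseudocount of 0.1, no minimum or a minimum of 5, the replicate block, the GC and length correction, voom on recovered reads and leaving out each sample.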

Additional observations from a re-analysis of the deposited data

How the results depend on the processing

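The number of members called was 0 under scaled TPM with a pseudocount of 0.1, no minimum, a minimum of 5, the replicate block, the GC and length correction with or without the block, voom on recovered reads in each form, and with any 1 sample left out. It was 1 on TPM as deposited and 9 on TPM as deposited with the replicate block; the pairing by replicate number changed no other member's call. Over all genes the number called lower was 348 on TPM as deposited, 2217 on it with the replicate block, 1 at a minimum of 5, 1 by voom, 251 by voom with the replicate block and 5 by voom with the GC and length correction and the block. The number called higher was 3, 15 and 170 on TPM as deposited, on it with the block and by voom with the block. With 1 sample left out, 0 to 1 genes were called lower and 0 to 13 higher, the members' median ran from -0.082 to 0.086, and 1 to 8 members had an unadjusted p under 0.05 (5 with all samples; 1 without DOX replicate 1, vehicle replicate 2 or vehicle replicate 3, 2 without DOX replicate 3, and 8 without DOX replicate 2).

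The members' median log2 fold change was -0.41 on TPM as deposited, with or without the replicate block, and -0.076 at a minimum of 5. On TPM as deposited, medians were -0.37 for the other core autophagy genes, -0.43 for the further receptors, -0.36 for fusion, -0.39 for V-ATPase, -0.40 for lysosomal enzymes and membrane proteins (1 called, CTSK), -0.36 for mTORC1 and AMPK control (1 called, PRKAA2) and -0.72 for MITF. After the GC and length correction the receptors' median was 0.083 and MITF was at -0.12.

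On TPM as deposited, with or without the replicate block, 17 members turned negative: CTSB (-0.43), CTSL (-0.41), WIPI1 (-0.36), LAMP1 (-0.35), GABARAP (-0.34), BECN1 (-0.34), ATG13 (-0.29), WIPI2 (-0.29), SQSTM1 (-0.26), ATG4B (-0.25), ULK1 (-0.25), CTSD (-0.17), ATG2A (-0.14), ATG101 (-0.10), TFE3 (-0.085), ATG16L1 (-0.074) and ATG9A (-0.046). After the GC and length correction, with or without the block, 13 turned sign: ULK1 (-0.12), CTSB (-0.095), WIPI1 (-0.088), ATG4B (-0.085), GABARAP (-0.033), LAMP1 (-0.018), VMP1 (0.014), LAMP2 (0.015), PIK3C3 (0.025), ATG5 (0.026), ATG14 (0.036), ATG12 (0.068) and ATG3 (0.091). By voom with that correction and the block, 18 did: ULK1 (-0.14), CTSB (-0.12), ATG4B (-0.069), CTSD (-0.051), GABARAP (-0.045), WIPI1 (-0.042), LAMP1 (-0.025), ATG2A (-0.024), SQSTM1 (-0.016), NBR1 (0.0066), TAX1BP1 (0.011), ATG14 (0.032), PIK3C3 (0.036), ATG5 (0.037), LAMP2 (0.043), VMP1 (0.049), ATG12 (0.091) and ATG3 (0.11). The cause was not tested. With 1 sample left out, 14 members turned sign at least once, over ranges of -0.11 to 0.31 for ULK1, -0.15 to 0.020 for ULK2, -0.021 to 0.17 for BECN1, -0.11 to 0.09 for ATG14, -0.13 to 0.11 for WIPI1, -0.41 to 0.072 for VMP1, -0.017 to 0.20 for ATG4B, -0.12 to 0.029 for ATG7, -0.14 to 0.071 for MAP1LC3B, -0.08 to 0.25 for GABARAP, -0.18 to 0.04 for NBR1, -0.0049 to 0.24 for LAMP1, -0.13 to 0.23 for CTSB and -0.091 to 0.12 for CTSL. Vehicle replicate 3 had the fewest reads (5453702), and TFEB rested on 19 reads in its shallowest sample. Counts and intervals describe 3 cultures a group of a single line.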
